A study of Mus musculus with 4 samples.

Results

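The genes described here are 10 mouse genes that encode immunoglobulin adhesion proteins held on the cell surface by a glycosylphosphatidylinositol (GPI) lipid anchor. They comprise 4 IgLON genes (Ntm, Opcml, Lsamp and Negr1) and 6 contactin genes (Cntn1 to Cntn6), and were chosen by name. At least 1 transposon read was assigned to 9 of them, among 5614 genes listed in either of 2 mutant libraries. The libraries were made in haploid neural stem cell-like cells of strain background 129Sv, which carry a single chromosome set, so that one insertion can disrupt the only copy of a gene. The cells came from haploid embryonic stem cells, by way of embryoid bodies and a medium with FGF2, EGF, LDN193189, SB431542 and a ROCK inhibitor (Y-27632, Thiazovivin or both; which one these samples received is not given in the sources used here). Every sample received a piggyBac gene trap plasmid together with a transposase and was selected with G418. Whether the resistance depended on transcription of the trapped gene, and whether the 2 samples of a library came from separate cultures, the labels do not say. The junctions of transposon and genome were amplified from genomic DNA by splinkerette PCR and sequenced.

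The 4 samples fall into library 1 and library 2, with 2 samples each, by the table that the sample labels name. No treatment, time or genotype in the labels differs between them, no untreated sample is among the 4, and each table is a single pool without a column per sample. A value per library therefore has no replicate check, and no test was made between the libraries. Library 1 held 55442 nonredundant and 877870 redundant reads in 4184 genes, and library 2 held 48750 and 1300140 in 3168 genes. DNA reads do not measure expression, so the cell type could not be checked against marker genes. Intervals below are exact 95% intervals that cover counting error only, because PCR reads are not independent molecules. For a count of 0, the upper limit is set at 3 reads throughout, which is a one-sided limit.

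IgLON proteins are small surface proteins built of immunoglobulin domains. They bind one another on neighbouring neurons and influence neurite outgrowth and synapse formation. Contactins are larger, with immunoglobulin domains followed by fibronectin type III domains. They act in axon guidance, in the pairing of axons with glia and in the assembly of nodes of Ranvier, often together with contactin-associated proteins, L1 family proteins or receptor phosphatases. Except for Cntn2, these genes are among the longest in the mouse genome, because their exons are spread over very large introns. A piggyBac transposon inserts at TTAA sites, and a longer gene offers more of them.

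Summed by family, the IgLON genes had more reads in library 2 and the contactins in library 1, sums that a few genes carried. The 4 IgLON genes together had 49 nonredundant reads in library 1 and 115 in library 2. The 6 contactin genes together had 123 reads in library 1 and 9 in library 2. As a share of each library, the IgLON genes were 2.67-fold higher in library 2 (95% interval 1.89 to 3.81) and the contactins 12.0-fold higher in library 1 (6.13 to 26.9). With redundant reads the contactin ratio was 71.0. Single genes carried much of this: Cntn5 held 79.7% of the contactin reads in library 1, and Ntm held 51.3% of the IgLON reads in library 2. Without Cntn5 the contactin ratio was 5.50, on 25 and 4 reads, and without Ntm the IgLON ratio was 1.63. These too rested largely on single genes. Of the 25 and 4 reads, Cntn4 held 21 and 0, and the other contactins had 0 to 3 reads each per library. Of the IgLON reads left without Ntm, Opcml held most, with 27 and 45. Single genes went the other way: the IgLON gene Lsamp had 10 and 5 reads in libraries 1 and 2, and the contactins Cntn1 and Cntn3 had 0 and 1, and 1 and 2. The split into families was made after the values were seen, and the difference between the families was not tested.

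**Figure D1:**
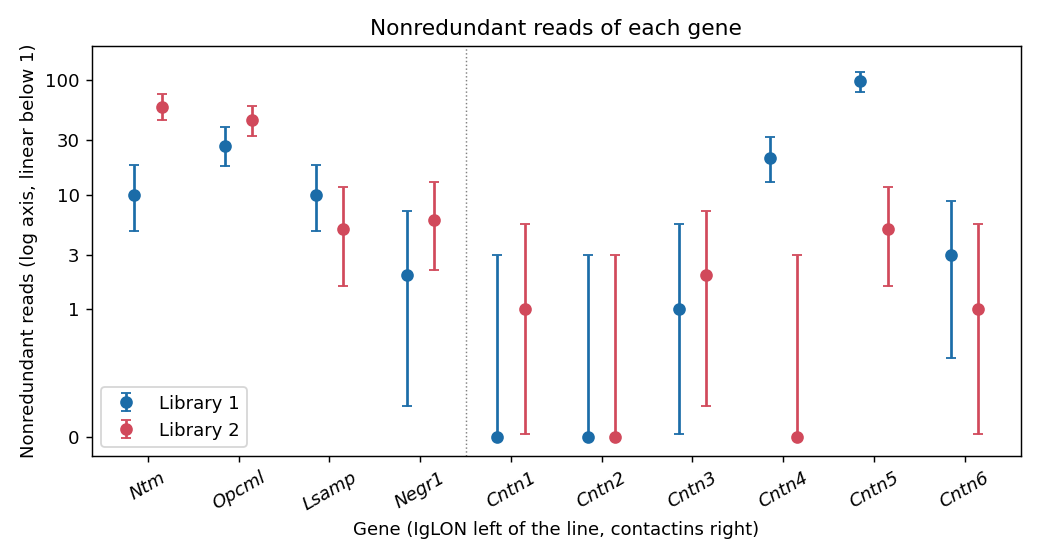
Nonredundant reads (vertical log axis, linear below 1) of each of the 10 genes in library 1 (blue) and library 2 (red), with exact 95% Poisson intervals for counting error (an upper limit of 3 reads at a count of 0). Cntn5 (98 and 5 reads) and Cntn4 (21 and 0) are higher in library 1, Ntm (10 and 59) is higher in library 2, and Cntn2 is at 0 in both.

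Among the IgLON genes, Ntm encodes neurotrimin, a neuronal adhesion protein. It had 10 nonredundant reads in library 1 and 59 in library 2, with Poisson intervals of 4.80 to 18.4 and 44.9 to 76.1 that do not overlap. Its share of the library was 0.0180% and 0.121%, or 6.71-fold higher in library 2 (interval 3.40 to 14.7). In redundant reads, whose definition the labels and headers do not give, Ntm had 57 and 280, and the share was 3.32-fold higher in library 2, short of the 4-fold used here to call a difference.

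Opcml encodes an opioid-binding cell adhesion protein and is the immediate neighbour of Ntm on chromosome 9. It had 27 reads in library 1 and 45 in library 2, and its share was 1.90-fold higher in library 2 (interval 1.15 to 3.18), within 4-fold. Its Poisson intervals, 17.8 to 39.3 and 32.8 to 60.2, overlap. Ntm and Opcml were the only members with 10 or more reads in both libraries.

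Lsamp encodes the limbic system-associated membrane protein. It had 10 reads in library 1 and 5 in library 2, a share 1.76-fold higher in library 1 with an interval from 0.548 to 6.56 that includes equal shares. Its redundant reads were 54 and 5, so that with redundant reads the ratio became 16.0.

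Negr1 encodes the IgLON protein known as neuronal growth regulator. It had 2 reads in library 1 and 6 in library 2, a ratio of 3.41 towards library 2 with a wide interval of 0.610 to 34.6. Its redundant reads were 2 and 212. In library 2 it thus had 35.3 redundant reads per nonredundant read, where the median was 1.80 over the 498 genes with a nonredundant count within 2-fold of its own, and 97.6% of those genes were lower. By redundant reads Negr1 was 71.6-fold higher in library 2, a value that rests on 6 nonredundant reads. The fifth IgLON gene, Iglon5, is not one of the 10 and was listed in neither library.

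Among the contactins, Cntn5 encodes a neuronal contactin studied in auditory and visual circuits. It had the most reads of the 10 genes, with 98 nonredundant reads in library 1 and 5 in library 2. Its share was 0.177% in library 1 (interval 0.144 to 0.215) and 0.0103% in library 2 (0.00333 to 0.0239), or 17.2-fold higher in library 1 (7.14 to 54.3). Its place by nonredundant reads was 128 among the 4184 genes of library 1 and 415 (tied) among the 3168 of library 2. Its redundant reads were 480 and 9.

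Cntn4, whose protein guides axons in the olfactory and visual systems and binds amyloid precursor protein family members, had 21 reads in library 1 and 0 in library 2. A count of 0 allows a share of up to 0.00615% in library 2, against 0.0379% measured in library 1. Set against 3 reads in library 2, its share was 6.16-fold higher in library 1. This value takes the 21 reads as exact and carries no interval, so the true ratio could be lower. Its redundant reads were 139 and 0.

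The remaining contactins had 0 to 3 reads in each library, too few for a ratio. Cntn6 had 3 and 1 reads in libraries 1 and 2, and Cntn3 had 1 and 2. Cntn1, the contactin of the paranodal axon and glia junction, had 0 and 1. Cntn2, also called TAG-1 and expressed on early projecting axons, had 0 in both, which allows a share of up to 0.00541% and 0.00615%. Cntn2 is also by far the shortest of the 10 genes.

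Counts of 1 to 3 reads were common in these tables. A count of exactly 1 was found for 53.7% of the genes in library 1 and for 59.7% in library 2, so the single reads of Cntn3 (library 1), Cntn1 and Cntn6 (library 2) stand at the lowest level a listed gene can have. In all 6 cases where one of the 10 genes had 1 to 3 reads in a library, its redundant count equalled its nonredundant count. Over all genes with 1 to 3 reads, the 2 counts were equal in 69.4% in library 1 and 66.7% in library 2.

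**Figure D2:**
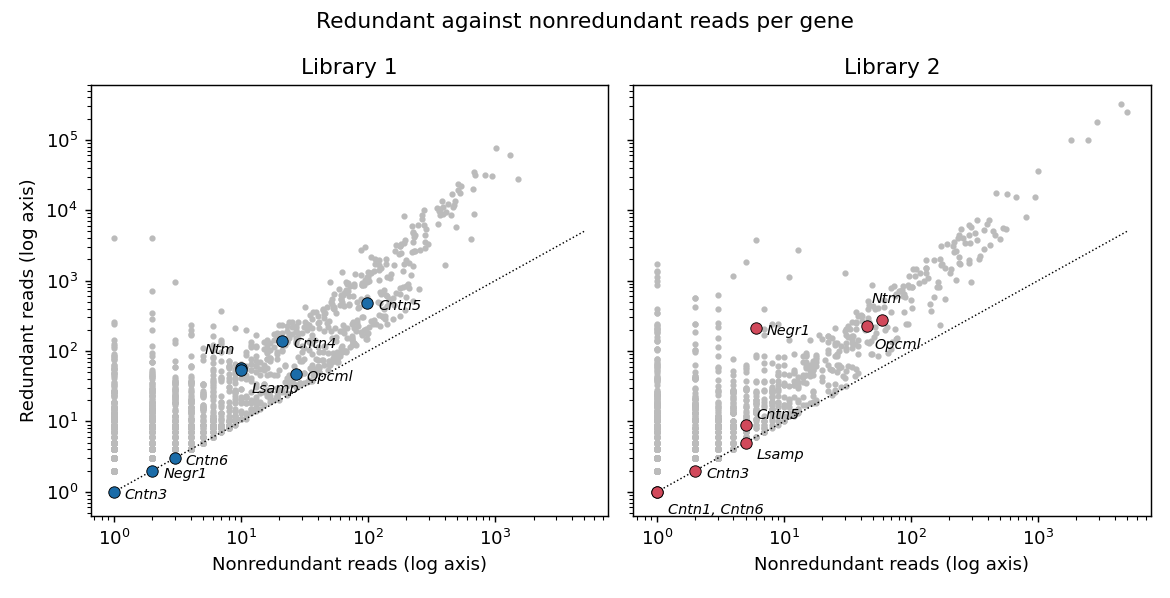
Redundant reads against nonredundant reads per gene (both log axes) in library 1 (left) and library 2 (right), with the 10 genes in colour where they had reads, other listed genes in grey and a dotted line where both counts are equal. Negr1 in library 2 (6 and 212) lies above most genes of like nonredundant count, while Opcml in library 1 (27 and 47) lies near the line.

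Where a member had 10 or more nonredundant reads, redundant reads per nonredundant read ranged from 1.74 (Opcml in library 1) to 6.62 (Cntn4 in library 1). Cntn5 in library 1 had 4.90, beside a median of 4.38 over 179 genes with a count within 2-fold, and 51.4% of those genes were lower. For Ntm in library 2 the ratio was 4.75 beside a median of 5.40. In library 1, Ntm at 5.70 and Lsamp at 5.40 stood beside a median of 1.83, above 80.6% and 78.7% of 413 genes, and Cntn4 at 6.62 stood beside 3.53, above 76.3% of 219 genes. Opcml had 1.74 in library 1, beside a median of 3.62, and 5.11 in library 2, beside 4.19. None of these came near the value of Negr1 in library 2.

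Of the 10 genes, 8 had at least 1 nonredundant read in library 1, where 15.9% of 26220 RefSeq genes with curated transcripts, noncoding genes included, did so. In library 2 the count was also 8, beside 12.1%. Restricted to genes at least as long as Cntn2, these backgrounds were 42.2% and 32.6%. Among the 599 genes at least as long as Cntn1, the shortest member with a read, they were 85.3% and 78.3%. In this class of long genes, 8 of 9 members were listed in each library, close to the class as a whole. That closeness is partly fixed in advance. The class starts at the shortest member with a read, so Cntn2, without reads, was left out by its own count. Both libraries listed 7 of the 10 genes, where 6.62% of all genes and 73.3% of the long genes were in both.

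At 10 or more reads, 5 members (Ntm, Opcml, Lsamp, Cntn4 and Cntn5) stood in library 1, where 1.90% of all genes and 24.7% of the long genes reached that minimum. In library 2, only Ntm and Opcml of the 10 did, where 1.12% and 13.0% did. Both of them reached it in both libraries, as did 0.164% of all genes and 4.34% of the long genes. No member had 100 or more reads in either library. The median over the 10 genes was 6.5 reads in library 1 and 3.5 in library 2, beside 0 in both libraries over all genes. Over the 9 members in the class of long genes it was 10 and 5, beside 4 and 2 over that class. Within the class, genes were not matched to the members in length, so these counts are not free of length. These counts describe a list chosen by name and with earlier results of these data known, and they were not tested.

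**Figure D3:**
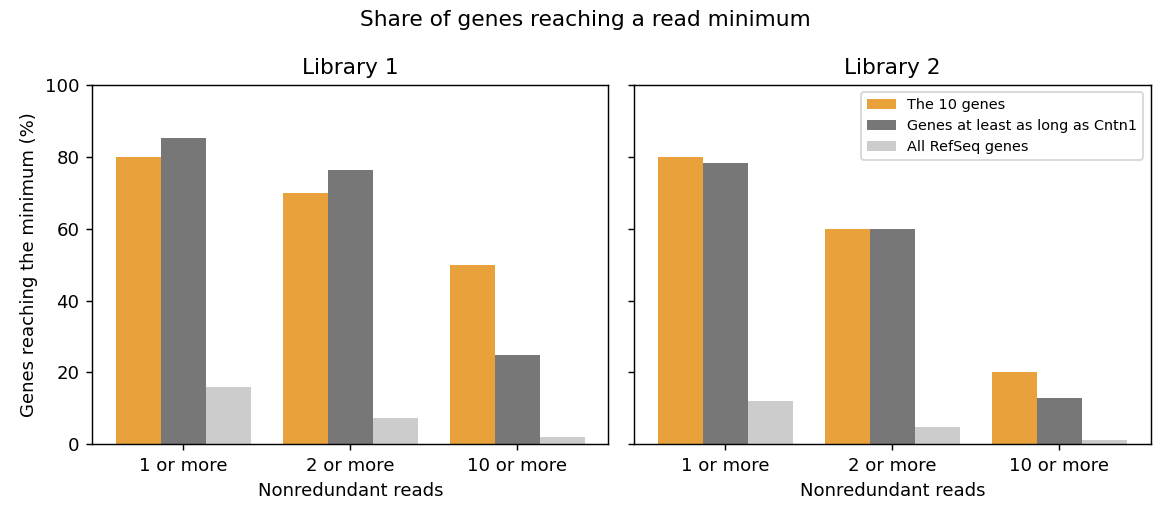
Percent of genes (vertical axis) with 1, 2 or 10 or more nonredundant reads in library 1 (left) and library 2 (right), for the 10 genes, the 599 RefSeq genes at least as long as Cntn1 and all 26220 RefSeq genes. At 1 or more reads the 10 genes (8 of 10 in each library) stand near the long genes (85.3% and 78.3%) and far above all genes (15.9% and 12.1%). The class of long genes excludes Cntn2 and holds 9 members, of which 8 were listed in each library. It starts at the shortest member with a read, so the nearness is partly fixed in advance.

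Between genes, reads were compared per length, as nonredundant reads per 100 kb of gene span. Spans were taken from RefSeq on assembly GRCm38.p6, which is not the authors' build, and they cover all transcripts of a gene. They order the members as Lsamp (2197 kb), Cntn5 (1271), Opcml (1135), Cntn4 (1023), Ntm (969), Negr1 (755), Cntn3 (401), Cntn6 (371), Cntn1 (291) and Cntn2 (33.8). The one Lsamp transcript in the deposited tables is not among those in this RefSeq table, so its span may differ from the model to which the authors assigned reads, and its value per length is the least certain.

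In library 1, Cntn5 led with 7.71 reads per 100 kb (interval 6.26 to 9.40), above Opcml at 2.38 (1.57 to 3.46) with no overlap of intervals. Below Cntn5, no gene was separated from the next in the order by its counting interval. Cntn4 followed at 2.05, Ntm at 1.03, Cntn6 at 0.809, Lsamp at 0.455, Negr1 at 0.265 and Cntn3 at 0.249, with Cntn1 and Cntn2 at 0. For Cntn2 the limit for a count of 0 was 8.87 because the gene is short, so its 0 does not place it below any other member.

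In library 2 the order was led by Ntm at 6.09 (4.64 to 7.86) and Opcml at 3.97 (2.89 to 5.31), whose intervals overlap. Opcml was separated from Negr1, the next gene at 0.795 (0.292 to 1.73). From Negr1 downwards each gene's interval overlapped that of the next. Cntn5, first in library 1, was at 0.394, and Lsamp, the longest member, was at 0.228. The limit for Cntn4, with 0 reads, was 0.293.

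The median of the 599 long genes was 0.809 reads per 100 kb in library 1 (quartiles 0.336 and 1.60) and 0.422 in library 2 (0.166 and 0.879). Cntn5 stood above 88.3% of the long genes in library 1 and above 47.7% in library 2. Ntm stood above 60.6% and 92.3%, and Opcml above 80.5% and 91.5%. Lsamp stood above 29.7% and 32.1%, a low place in both libraries that depends on its uncertain span. Its counting intervals (0.218 to 0.837 and 0.0739 to 0.531) include the class median in each library. Of the span of all long genes, the 9 members in this class held 2.52%. They held 1.35% of the long genes' reads in library 1 and 1.17% in library 2. Such sums can rest on a few genes. In library 2, Nrxn3 alone held 2878 of the 10571 reads of long genes, and in library 1 Dok6 held 693 of 12731. The median of the 9 members was 0.809 and 0.394 reads per 100 kb, beside the class medians of 0.809 and 0.422. Across the 10 members, Spearman's rho of span and reads was 0.87 in library 1 and 0.52 in library 2, and across the 599 long genes 0.33 and 0.30. These values cannot be compared, because the members include Cntn2 (33.8 kb, 0 reads) and the long genes start at 291 kb. The points share a library and its depth, and genes are not independent replicates.

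**Figure D4:**
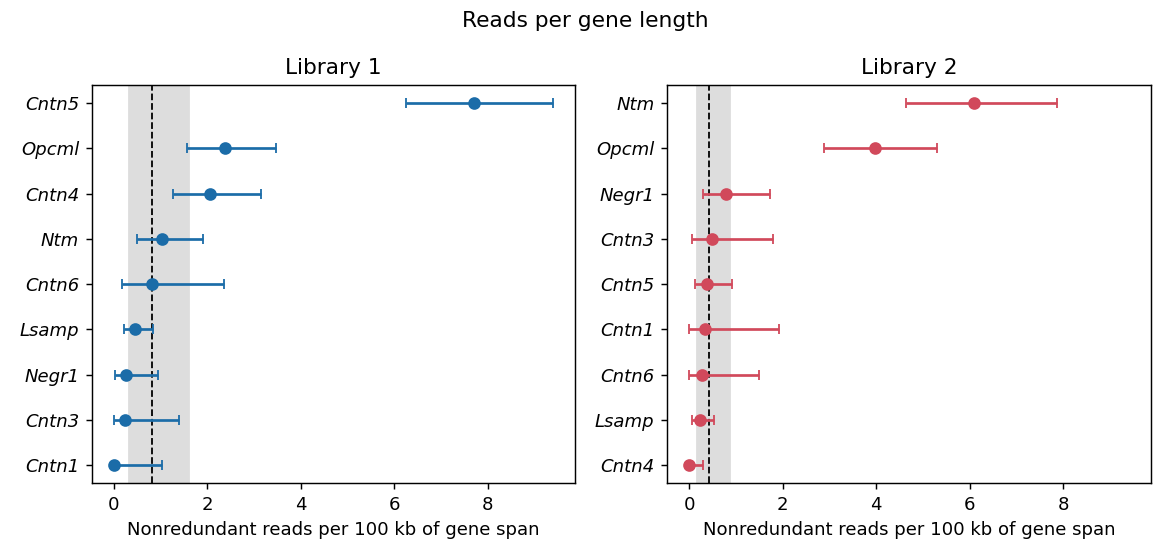
Nonredundant reads per 100 kb of gene span (horizontal axis) for the 9 members other than Cntn2 in library 1 (left) and library 2 (right), with exact 95% counting intervals. The dashed line is the median and the grey band the quartiles of the 599 long genes. Cntn5 at 7.71 in library 1 and Ntm at 6.09 and Opcml at 3.97 in library 2 lie to the right of the band.

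A gene with 10 or more reads in at least 1 library was counted as different where its share was at least 4-fold higher in one. Of the 5 members with such a count, Cntn5 and Cntn4 were at least 4-fold higher in library 1, where 55.2% of 750 genes were, and 50.5% of 200 long genes. Ntm was at least 4-fold higher in library 2, as were 32.4% of the 750 genes and 24.5% of the long genes. Opcml and Lsamp were within 4-fold. A difference of this size was thus the usual state of a gene with 10 or more reads in these pools, and not one that marks these members. With redundant reads, Cntn5 (79.0-fold), Cntn4 (68.6-fold) and Lsamp (16.0-fold) were past 4-fold in library 1. In library 2, Negr1 (71.6-fold) was past 4-fold, and Ntm was not. The Cntn4 value sets its library 2 count of 0 to the limit used throughout and takes its library 1 count as exact. It carries no interval, so the true ratio could be lower.

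**Figure D5:**
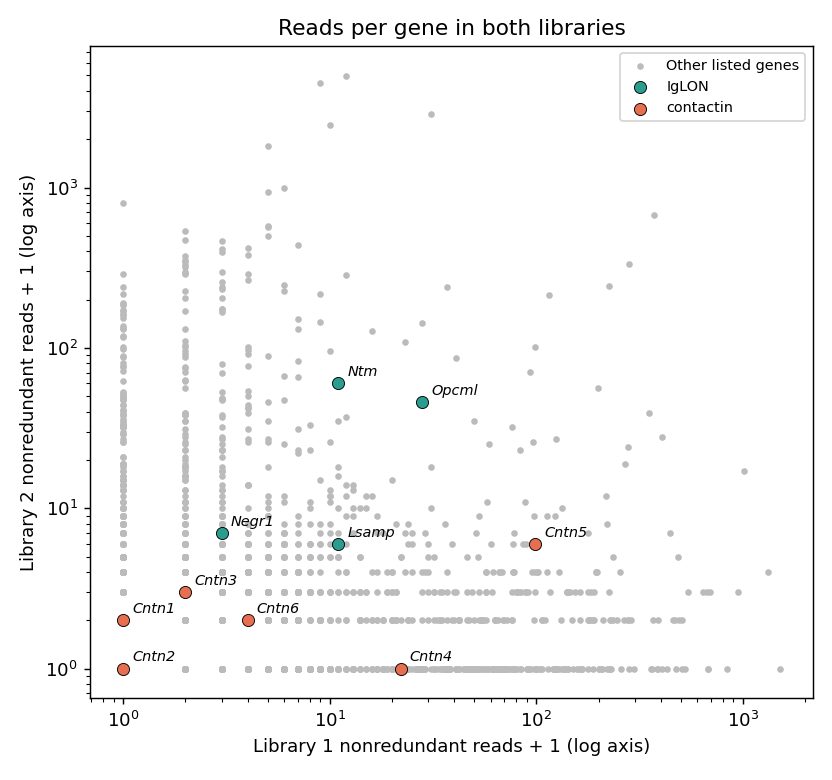
Nonredundant reads + 1 in library 2 against library 1 (both log axes) for all 5614 listed genes (grey), with IgLON genes in green and contactins in orange. Ntm (10 and 59) and Opcml (27 and 45) lie between the axes, while Cntn5 (98 and 5) and Cntn4 (21 and 0) lie near the library 1 axis, as many grey points do.

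Some of the members share a chromosome. Cntn5, Opcml and Ntm are on chromosome 9, the latter pair next to each other, and Cntn3, Cntn6 and Cntn4 are on chromosome 6, with Cntn6 and Cntn4 as immediate protein-coding neighbours. Of the contactin pair, Cntn4 had 21 and 0 reads in libraries 1 and 2, and Cntn6 had 3 and 1. The counts of Cntn6 are too few to tell the pair apart. Per 100 kb, their library 1 intervals overlap (1.27 to 3.14 and 0.167 to 2.36). The other nearest protein-coding genes had few reads or none, with one exception. Muc19, a gel-forming mucin gene that neighbours Cntn1 on chromosome 15, had 166 nonredundant reads in library 1 and 0 in library 2, where Cntn1 had 0 and 1. Of the rest, Pdzrn4 beside Cntn1 had 2 and 3 reads, Pdzrn3 beside Cntn3 had 2 and 1, Chl1 between Cntn3 and Cntn6 had 1 and 0, Gap43 beside Lsamp had 1 and 0, and Arhgap42 beside Cntn5 had 0 and 1. The tables hold no insertion positions.

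Related gene lists were read for comparison. Of 20 binding partners of contactins and IgLONs, 11 were listed in library 1 and 11 in library 2, and 3 and 2 had 10 or more reads. Over all RefSeq genes, the shares listed were 15.9% and 12.1% and the shares at 10 or more reads 1.90% and 1.12%. Over genes at least as long as Cntn2 (33.8 kb), 42.2% and 32.6% were listed, and 5.75% and 3.41% had 10 or more reads. These backgrounds also stand behind the lists that follow. The partners have a median span of 200 kb, so neither background matches them in length. The contactin-associated protein gene Cntnap3 had 39 and 2 reads in libraries 1 and 2, and Cntnap2 had 19 and 14. Nrcam, an L1 family adhesion gene, had 2 and 37. Of the 4 partners with 10 or more reads, 1 was at least 4-fold higher in each library, where over all genes with such a count 55.2% were in library 1 and 32.4% in library 2.

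Other immunoglobulin adhesion genes, with a median span of 104 kb, were listed for 25 of 34 in library 1 and 16 in library 2. They had 931 and 93 reads in sum. Of the 10 among them with 10 or more reads, 7 were at least 4-fold higher in library 1 and 1 in library 2, beside 55.2% and 32.4% of all such genes. The sidekick gene Sdk1 had 235 and 4 reads, Igsf9 230 and 0, and the Down syndrome cell adhesion paralog Dscaml1 141 and 2.

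Genes of other GPI-anchored neural proteins, with a median span of 37.4 kb, were listed for 10 of 26 in library 1 and 8 in library 2. The truncated cadherin gene Cdh13 had 224 and 243 reads, the GDNF co-receptor gene Gfra1 had 2 and 52, and the glypican gene Gpc6 had 30 and 9. Genes for GPI anchor assembly and attachment, on which the surface display of all 10 proteins depends, have a median span of 14.6 kb. In each library 4 of 29 were listed, near the 15.9% and 12.1% of all genes. Pign had 37 reads in library 1 and 0 in library 2, and the next, Pgap1 and Pigl, each had 1 and 3.

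The genes whose reads were most like those of Cntn5, by distance of log2(reads + 1) over the 2 libraries, were the calcium channel gene Cacna1c with 88 and 5 reads (distance 0.15), BC052040 with 85 and 5 (0.20) and Frmd5 with 76 and 5 (0.36). With 2 points per gene, such likeness is a description of these counts alone.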

How the data were processed

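Per the file headers, each of the 2 deposited tables gives a gene, its transcripts, and raw counts of nonredundant and redundant reads, with no normalization; a gene without reads has no line. CASAVA, BWA and the build mm9 are named, without versions, in the submitters' processing notes. Read filters, the definition of nonredundant and the assignment of reads to genes are not stated in the labels or headers. The members, lists and tests were chosen with earlier results of these data known.

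Genes were matched to RefSeq GRCm38.p6 by transcript (4160 of 4184 and 3154 of 3168), then by name (22 and 13). A share is reads over the library total. Ratios carry conditional exact binomial intervals, counts exact Poisson and shares Clopper-Pearson intervals (95%; SciPy 1.17.1, Python 3.11.15). A count of 0 was set to 3 reads for a ratio, with the other count taken as exact. No p-value was computed, since each library is 1 pool. Named genes are the 10 members, up to 5 genes with most reads per list, listed neighbours, and the 3 genes nearest the leading member. The planned comparison of member proteins was not run, for want of a protein table, and no sequences are shown. Alternatives were redundant reads, other totals, folds and minima, and each member left out; the family sums, the class of long genes and the genes of like count were added after the data were seen.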

Additional observations from a re-analysis of the deposited data

How the results depend on the processing

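The number of members at least 4-fold higher, 2 in library 1 and 1 in library 2, stayed within 1.5 times under every alternative run (redundant reads, other totals, no scaling, 2-fold, minima of 5 or 20 reads), but with redundant reads Lsamp joined and Negr1 took the place of Ntm. With redundant reads, 775 and 395 listed genes passed 4-fold in libraries 1 and 2, against 414 and 243. At a minimum of 20 reads 3 members passed in library 1 in place of 5, and at 5 reads 5 passed in library 2 in place of 2. The summed share of all 10 genes was 1.22-fold higher in library 1 (interval 0.963 to 1.55). It turned to library 2 without Cntn5 (0.547) and with totals that leave out the 10 genes with most reads (0.840), and was 2.19 without Ntm, 1.61 without Opcml and 1.57 with redundant reads. The IgLON ratio towards library 2, 2.67, was 1.63 without Ntm and 3.88 with those totals. The contactin ratio towards library 1, 12.0, was 5.50 without Cntn5 and 71.0 with redundant reads. The 5.50 rested largely on Cntn4 (21 and 0 reads in libraries 1 and 2), and the 1.63 on Opcml (27 and 45). The cause was not tested, beyond what the members left out show. No paired analysis was possible because the samples of a library share 1 column; for the same reason no replicate could be left out. At this depth no ratio could be given for Cntn1, Cntn2, Cntn3 and Cntn6, with 0 to 3 reads each.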
